A study of Homo sapiens with 11 samples.

Results

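Of the 26237 gene promoters listed for BEAS-2B cells, 362 (1.38%) held more H3K4me3 in nickel-exposed (Ni-E) than in untreated (UT) cells by the measure used here, and these promoters are described below. They were chosen by their chromatin dynamic score (CDS), the square root of the level in Ni-E cells over the median of that library minus the same in UT cells, which had to reach 0.27. A score of −0.27 or less was reached by 38 promoters. The levels in Ni-E and UT cells therefore chose the members, and they are given as a description without a test. BEAS-2B is an immortalized line of human bronchial epithelial cells, and RT4 is a line from a papillary tumor of the human urinary bladder. Nickel-exposed cells of both lines grew with 100 μM NiCl2 for 6 weeks, and UT cells received none. RT4 washed-out (Ni-W) cells then spent 2 weeks in nickel-free medium. The BEAS-2B Ni-W cells come from a single colony that was grown without nickel for over 6 months, so that they represent 1 clone, although the labels also give 2 weeks for this line. H3K4me3 was profiled by ChIP-Seq in BEAS-2B cells with 1 library per condition, and RNA-Seq of RT4 cells has 2 libraries per condition. ChIP is said to have used 2 biological replicates, but only 1 set of values per condition was available, so the levels have no replicate error.

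H3K4me3 is the trimethylated form of lysine 4 of histone H3. It sits on nucleosomes around the start sites of active genes, in a peak that usually spreads downstream into the body of the gene. The largest class of members by its share, the small nucleolar RNAs (snoRNAs), guides chemical modification of ribosomal and other RNAs. C/D box snoRNAs direct methylation of the ribose and H/ACA box snoRNAs direct the formation of pseudouridine. In human cells most snoRNAs have no promoter of their own and are cut out of the introns of host genes, many of which encode ribosomal proteins, translation factors or noncoding RNAs such as GAS5 and the SNHG transcripts.

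Of the 12 highest scores, 11 belonged to windows around C/D box snoRNAs of a few hosts. The sequences of these snoRNAs, except SNORD12B, SNORD1B and SNORD22, are given to show which genes the windows are centred on. They were read from hg38 on the strand of the gene, and capitals mark TGATG, the core of the C box near the 5′ end, and CTGA, the D box, where it lies within the last 20 bases.
SNORD14C (chr11:123059335-123059422, minus strand): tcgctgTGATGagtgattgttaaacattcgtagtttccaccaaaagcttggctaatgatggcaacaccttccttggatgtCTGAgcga
SNORD14D (chr11:123058909-123058995, minus strand): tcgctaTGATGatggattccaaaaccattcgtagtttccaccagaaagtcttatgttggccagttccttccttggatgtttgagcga
SNORD14E (chr11:123058077-123058161, minus strand): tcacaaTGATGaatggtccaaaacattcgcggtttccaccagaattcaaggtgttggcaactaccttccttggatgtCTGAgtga
SNORD78 (chr1:173865622-173865686, minus strand): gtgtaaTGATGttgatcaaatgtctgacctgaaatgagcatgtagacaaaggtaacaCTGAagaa
SNORD79 (chr1:173865350-173865430, minus strand): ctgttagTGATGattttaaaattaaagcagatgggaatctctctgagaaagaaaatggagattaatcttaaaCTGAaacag
SNORD80 (chr1:173864833-173864903, minus strand): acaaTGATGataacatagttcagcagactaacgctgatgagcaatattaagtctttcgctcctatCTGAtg
SNORD12 (chr20:49280683-49280772, plus strand): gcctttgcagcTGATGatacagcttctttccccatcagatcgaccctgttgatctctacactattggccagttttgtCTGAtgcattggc
RNU86 (chr22:39316842-39316896, minus strand): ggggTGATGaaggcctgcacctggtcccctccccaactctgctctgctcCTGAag
SNORD14C, SNORD14D and SNORD14E are related copies in introns of HSPA8, the gene of the constitutive heat shock protein HSC70. Over the longer sequence of each pair, 74 of 88 bases (84.1%) were shared in order by SNORD14C and SNORD14D, 71 of 87 (81.6%) by SNORD14D and SNORD14E, and 70 of 88 (79.5%) by SNORD14C and SNORD14E. SNORD78, SNORD79 and SNORD80 lie in introns of GAS5, SNORD12 in ZFAS1 and the snoRNA listed as RNU86 in RPL3.

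Promoters of the hosts themselves are shown for the 4 members that host a member snoRNA and have some of the longest runs of C and T around the start site. Each runs from 50 bases before the RefSeq start site to 30 after it (GRCh38.p14, strand of the gene), and capitals mark the run.
RPL39 (chrX:119791601-119791680, minus strand): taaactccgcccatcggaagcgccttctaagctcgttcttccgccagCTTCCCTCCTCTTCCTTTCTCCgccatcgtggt
GNB2L1 (chr5:181243877-181243956, minus strand): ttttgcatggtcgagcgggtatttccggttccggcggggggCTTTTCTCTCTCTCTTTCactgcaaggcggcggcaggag
EEF1B2 (chr2:206159845-206159924, plus strand): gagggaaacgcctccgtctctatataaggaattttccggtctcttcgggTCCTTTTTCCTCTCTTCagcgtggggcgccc
RPL17 (chr18:49492436-49492515, minus strand): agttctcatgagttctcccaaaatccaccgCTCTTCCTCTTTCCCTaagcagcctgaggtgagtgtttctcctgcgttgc
RPL39 and RPL17 encode proteins of the large ribosomal subunit, GNB2L1 (now named RACK1) a scaffold protein of the small subunit, and EEF1B2 a subunit of an elongation factor. The run is 22 bases long at RPL39, 18 at GNB2L1, 17 at EEF1B2 and 16 at RPL17. The promoter with the highest score of all, PPP1R14C, is shown in the same way, with GGGCGG in capitals.
PPP1R14C (chr6:150142994-150143073, plus strand): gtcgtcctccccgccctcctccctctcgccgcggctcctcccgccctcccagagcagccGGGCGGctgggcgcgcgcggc

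The UT library holds 28385725 non-redundant reads, the Ni-E library 37493949 and the Ni-W library 29933551, as recovered from the steps of the RPKM values, all of which are whole multiples of the worth of 1 read within 0.00055 RPKM. A floor of 3 reads corresponds to 0.0264, 0.0200 and 0.0251 RPKM, and intervals of single levels are 95% Wilson intervals that cover counting error only. The median promoter held 1.568 RPKM in UT, 1.387 in Ni-E and 1.119 in Ni-W cells. Dividing by the median thus raises Ni-E levels against UT levels by 0.18 on the log2 scale and Ni-W levels by 0.49. Summed over the listed windows, some of which overlap, the reads were 10662865 in UT, 13508650 in Ni-E and 6851607 in Ni-W cells. Among the epithelial markers checked in UT cells, the promoters of KRT8 (7.33 RPKM) and KRT18 (7.26) were marked, EPCAM (2.21) and CDH1 (1.02) were weaker, and the basal markers KRT5 (0.220), KRT14 (0.396) and TP63 (0.388) were low. VIM, a mesenchymal gene, held 8.95 RPKM. The airway markers SCGB1A1 and MUC5AC held 0.176 and 0.282 RPKM, but FOXJ1 held 1.55, above CDH1. The endothelial marker PECAM1 held 0.203 RPKM, and the leukocyte marker PTPRC was listed at 0. RT4 cells expressed urothelial genes, with a median TPM of 253 for UPK2 and 204 for GATA3. The keratins KRT20 (1.48, range 0.110 to 11.3) and KRT5 (3.39) of the same list were low. VIM had a median TPM of 0.180, PTPRC 0.00500 and PECAM1 0.0150.

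The members were mostly well-marked promoters before exposure. Their median level was 8.29 RPKM in UT cells (quartiles 4.86 and 10.7) and 9.83 RPKM in Ni-E cells (6.09 and 12.1), against medians of 1.57 and 1.39 RPKM over all promoters. In deposited RPKM the median ratio of Ni-E to UT cells was 1.17 (quartiles 1.11 and 1.29, range 1.02 to 5.06), and after division by the library medians it was 1.32 (1.26 and 1.46), against 0.972 and 1.10 over all promoters. Under median scaling the rule itself places the level in Ni-E cells above that in UT cells at all 362 members. It was also above at all 362 without any scaling, after quantile normalization and after scaling by the median of promoters with at least 1 RPKM. As the same libraries chose the members, this is no separate evidence. With these 3 scalings, 59, 115 and 3 promoters reached 0.27. By the ratios above, the gains were small in relative terms at most members. The share of promoters that were members was 0.161% of the 12394 promoters under 1 RPKM in UT cells. It was 1.65% at 4 to 8 RPKM, 4.21% at 8 to 12 RPKM and 5.20% above 12 RPKM. The rule itself favors high levels, since a difference of 0.27 between square roots takes a smaller ratio there. Over all promoters the median-scaled ratio of Ni-E to UT cells had a median of 1.22 under 1 RPKM and 1.01 at 1 to 2 RPKM. It was 1.04 at 2 to 4 RPKM, 1.08 at 4 to 8, 1.09 at 8 to 12 and 1.08 above 12. Just inside the threshold were RUVBL2 (13.0 RPKM in UT and 13.8 in Ni-E cells) and SNHG15 (6.51 and 7.39), each with a score of 0.2705. Just outside were HIST1H2BF (5.38 and 6.25 RPKM, score 0.2699), ADAM9 (9.86 and 10.7, 0.2698) and SF3A2 (13.7 and 14.4, 0.2695).

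Members are not separate observations where their windows of 4 kb overlap, since such windows share reads. Of the 362 members, 358 could be placed in GENCODE version 44. Joining members whose windows overlap gave 219 loci, of which 139 hold 1 member and 80 hold the other 223. Members without a position count as 1 locus each, as MATR3 does although its values are those of SNHG4. SNORD141A and SNORD141B, placed on chromosomes 9 and 5, also have equal values and count apart. The start sites behind the deposited windows are not given and may differ from those of GENCODE, so the number of loci is approximate. The locus of GAS5 holds 13 members, that of SNHG1 9 and that of RPL4 6. For 14 members all 3 values are the same as those of another member, as for RPL17 and the readthrough gene RPL17-C18orf32. Chromosome 1 holds 12.6% of the placed members (45 in 19 loci) and 10.1% of the placed promoters, chromosome 12 holds 1.40% and 4.96%, and chromosomes 21 and Y hold none.

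By class, 110 of the 430 listed snoRNA windows (25.6%) were members, so that snoRNAs make up 30.4% of the members and 1.64% of the listed promoters. Protein-coding genes give 223 members (1.19% of 18767), lncRNAs 19 (0.645% of 2947) and miRNAs 7 (0.378% of 1851). A further 3 members were not matched to a class. Of the snoRNA members, 79 are of the C/D box type and 31 of the H/ACA type. The median level of the snoRNA members was 7.48 RPKM in UT, 9.29 in Ni-E and 4.50 in Ni-W cells. Their median ratio of Ni-E to UT cells was 1.28 in deposited RPKM and 1.44 after median scaling, against 1.15 and 1.30 for the protein-coding members.

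**Figure D1:**
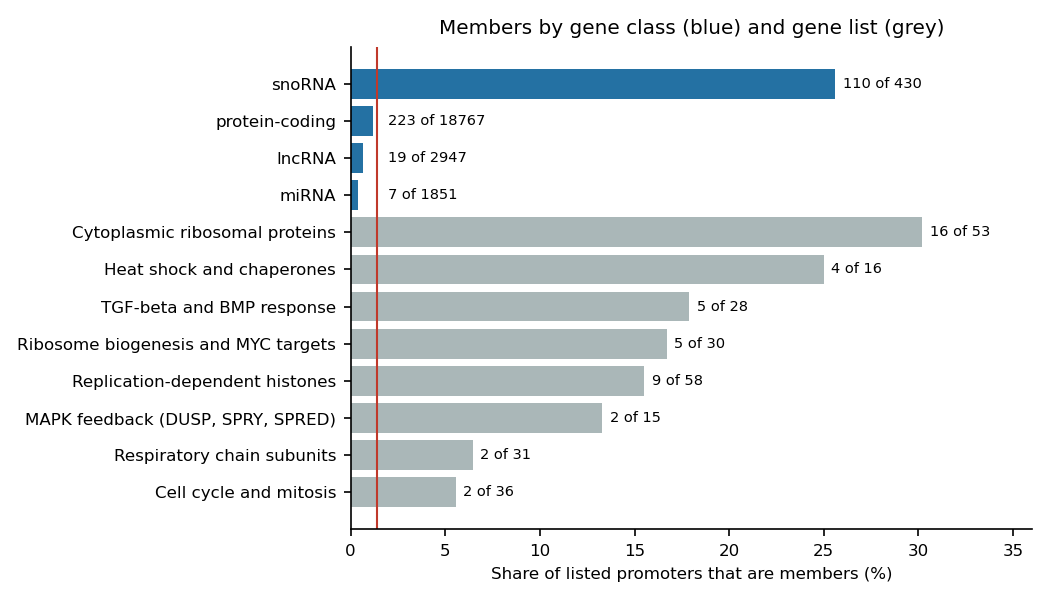
Share of the listed promoters that are members (x axis, %) by gene class (blue bars) and for the 8 gene lists with 2 or more members (grey bars), with the counts beside each bar and a red line at the 1.38% of all promoters. snoRNA windows stand at 25.6% and the promoters of cytoplasmic ribosomal proteins at 30.2%, while the protein-coding, lncRNA and miRNA classes lie under the line.

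The snoRNA members lie inside genes with strong promoters. A host on the same strand was found for 108 of them, in 48 hosts, of which 29 are members themselves. Ribosomal protein or translation factor genes host 50 of the 108, and the noncoding hosts GAS5, ZFAS1 and the SNHG genes host 42. The snoRNAs start 239 to 5712 bases downstream of the start site of the host (median 2255), with 48 at up to 2000 bases, where the window still covers the start site, and 60 farther away. The share of members differed by this distance. Among the listed snoRNAs within 500 bases of the host start, 7 of 14 (50.0%) were members, and at 1000 to 2000 bases 30 of 43 (69.8%). At 2000 to 3000 bases it was 31 of 42 (73.8%) and at 3000 to 4000 bases 22 of 30 (73.3%). At 4000 to 10000 bases the share was 7 of 56 (12.5%), and beyond 10000 bases 0 of 164. The median UT level was 9.44 RPKM within 500 bases, 2.29 at 3000 to 4000, 0.436 at 4000 to 10000 and 0.176 beyond. At least 1 RPKM in UT cells was held by 10 windows at 4000 to 10000 bases and by 0 beyond. As the rule favors high levels, the low shares there cannot be told apart from the low levels.

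Up to 4000 bases, the relative gain was larger in the windows farther into the host than in those near its start. Among snoRNA windows with at least 1 RPKM in UT cells, members or not, the median-scaled ratio of Ni-E to UT cells had a median of 1.28 up to 500 bases from the host start, 1.27 at 500 to 1000, 1.30 at 1000 to 2000, 1.47 at 2000 to 3000 and 1.69 at 3000 to 4000 bases. At 4000 to 10000 bases it was 1.61, over 10 windows. In deposited RPKM these 6 ratios were 1.13, 1.12, 1.15, 1.30, 1.49 and 1.42. The median-scaled ratio of Ni-W to UT cells also rose with distance up to 4000 bases. Its medians were 0.647, 0.799, 0.856, 0.899 and 0.914, and 0.736 at 4000 to 10000 bases. A rise with distance was thus not particular to Ni-E cells, and both ratios have the same UT library as divisor. The same distances were read for windows of other genes that start downstream of another start site on the same strand, whether or not they lie inside that gene. At 2000 to 4000 bases the median ratio in deposited RPKM was 1.33 for 60 snoRNA windows (51 members), 1.02 for 35 miRNA windows (4 members) and 0.955 for 68 windows of protein-coding genes and lncRNAs (1 member). Up to 2000 bases it was 1.14, 0.952 and 0.965. The median of the snoRNA windows was the highest at these distances. This difference was not tested, as there is 1 library per condition and snoRNAs of 1 host share reads. The windows of protein-coding genes and lncRNAs are centred on start sites of their own, while most snoRNAs have no promoter, so the windows are not alike.

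**Figure D2:**
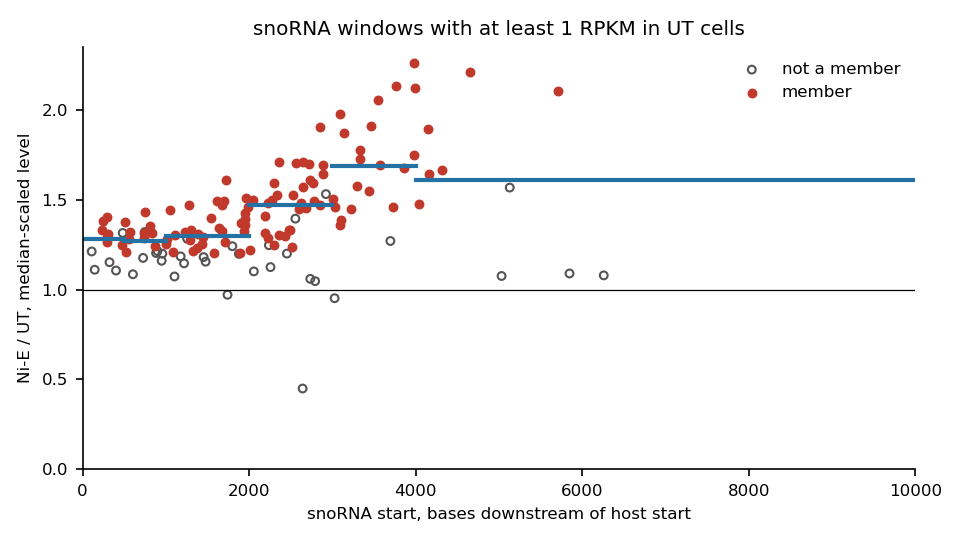
Ratio of the median-scaled H3K4me3 level in Ni-E to UT cells (y axis) of snoRNA windows with at least 1 RPKM in UT cells against the distance from the host start to the snoRNA start (x axis, bases). Filled points are members and open points are not, blue bars are medians of each range of distance, which go from 1.28 within 500 bases to 1.69 at 3000 to 4000 bases and 1.61 beyond, and the black line marks equal levels.

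GAS5, a noncoding growth-arrest transcript that carries 11 of the listed snoRNAs, shows the pattern within 1 gene, and all 11 were members. Its own promoter held 12.1 RPKM in UT, 14.4 in Ni-E and 8.40 in Ni-W cells. SNORD74, 244 bases into the gene, held 12.5, 15.3 and 8.63 RPKM in the same order. SNORD78, 2303 bases into it, held 7.96, 11.2 and 6.69 RPKM. With distance the level thus came down in all 3 libraries, more slowly in Ni-E than in UT cells. SNORD80, at 3086 bases, had a UT level of 3.62 RPKM (411 reads, interval 3.29 to 3.99), a Ni-E level of 6.33 (950 reads, 5.94 to 6.75) and a Ni-W level of 3.70 (443 reads, 3.37 to 4.06). SNORD81, the farthest at 3767 bases, held 1.90, 3.59 and 1.90 RPKM. The ratio of Ni-E to UT cells in deposited RPKM was 1.19 at the host promoter, 1.22 at SNORD74, 1.41 at SNORD78, 1.75 at SNORD80 and 1.89 at SNORD81. In Ni-W cells the near windows were below UT cells in deposited RPKM, while SNORD80 and SNORD81 differed from UT cells by less than their counting intervals. After median scaling the ratio of Ni-W to UT cells was 0.967 at SNORD74, 1.43 at SNORD80 and 1.40 at SNORD81.

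HSPA8 and NOP56 are hosts whose own promoters were not members. The HSPA8 promoter held 15.5 RPKM in UT, 15.8 in Ni-E and 7.67 in Ni-W cells (score 0.235). Inside the gene, SNORD14C at 2714 bases held 7.31 RPKM in UT and 4.79 in Ni-W cells, from 830 and 574 reads, and had 1650 reads in Ni-E cells. SNORD14D at 3141 bases held 5.18 (588 reads, interval 4.78 to 5.61), 8.58 (1287 reads, 8.13 to 9.06) and 3.52 RPKM (422 reads, 3.20 to 3.88). In deposited RPKM the intervals of the 3 libraries do not overlap at SNORD14D, with Ni-E cells the highest and Ni-W cells the lowest. The lower Ni-W level is not particular to this window. Its ratio of Ni-W to UT cells was 0.680 in deposited RPKM, against a median of 0.656 over all promoters, and 0.953 after median scaling. SNORD14E at 3975 bases held 2.25, 4.49 and 1.40 RPKM, so the ratio of Ni-E to UT cells went from 1.51 at SNORD14C over 1.66 to 2.00. NOP56 encodes a core protein of C/D box snoRNA particles, and its promoter held 18.7, 18.1 and 8.97 RPKM. Its SNORD110 at 1580 bases held 16.1, 17.1 and 6.80 RPKM, and its SNORD86 at 3465 bases held 2.89, 4.89 and 1.37 RPKM. Without scaling, Ni-E cells were therefore below UT cells at the NOP56 start and above them at the snoRNAs of its introns.

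**Figure D3:**
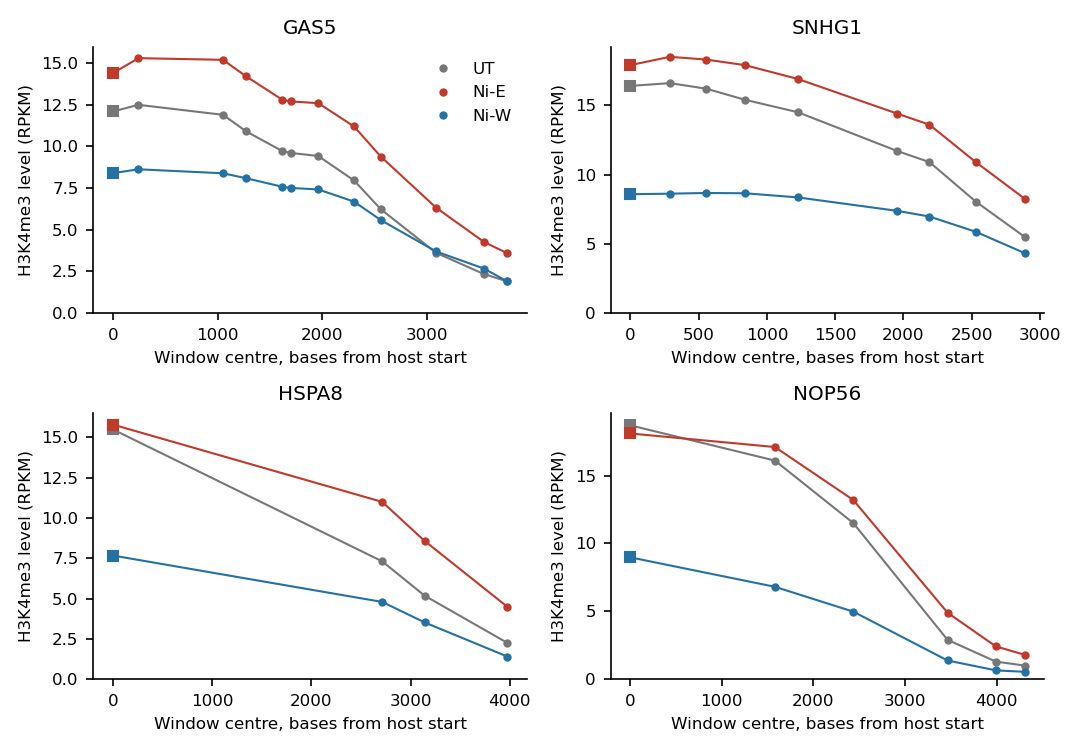
H3K4me3 level (y axis, RPKM) of the windows of 4 kb centred on the host start (squares) and on its snoRNAs (points) against the distance of the snoRNA from the host start (x axis, bases), for GAS5, SNHG1, HSPA8 and NOP56 in UT (grey), Ni-E (red) and Ni-W cells (blue). The levels come down with distance in all libraries, and the Ni-E line lies above the UT line at every snoRNA, although at the NOP56 start it is below (18.1 against 18.7 RPKM).

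Other hosts with high scores were SNHG1, SNHG16, ZFAS1 and RPL3. SNHG1 carries 8 member snoRNAs, of which the farthest, SNORD22, held 5.50 RPKM in UT, 8.26 in Ni-E and 4.33 in Ni-W cells, while its own promoter held 16.4, 17.9 and 8.58 RPKM. SNORD1B in SNHG16 held 5.12, 7.82 and 2.27 RPKM. In ZFAS1, SNORD12B held 12.1, 15.8 and 7.28 RPKM, and SNORD12 next to it 15.8 RPKM in Ni-E and 7.07 in Ni-W cells. RNU86 in RPL3 held 8.46, 12.1 and 4.36 RPKM, and SNORD83B, 5712 bases into the same gene, held 1.01, 1.89 and 0.484 RPKM. Among the 19 lncRNA members are SNHG9 (9.07, 11.4 and 3.91 RPKM), SNHG4 (8.61, 10.8 and 3.42) and SNHG7 (10.5, 12.4 and 5.72). The windows of these noncoding hosts met the threshold along with snoRNAs, unlike those of HSPA8 and NOP56. The window of SNHG9 overlaps that of RPS2 (9.08, 11.6 and 3.92 RPKM), and SNHG4 has the same values as the protein-coding MATR3. At these 2 the gain cannot be assigned to the noncoding gene.

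PPP1R14C had the highest score of all promoters (0.730). It encodes an inhibitor of protein phosphatase 1 and starts at position 150143044 of chromosome 6 on the plus strand. The UT level was 2.83 RPKM (321 reads, interval 2.53 to 3.15), the Ni-E level 5.96 (894 reads, 5.58 to 6.36) and the Ni-W level 2.89 (346 reads, 2.60 to 3.21). The level in Ni-E cells was 2.11 times that in UT cells in deposited RPKM, and there UT and Ni-W cells differed by less than their counting intervals. After median scaling, PPP1R14C held 2.38 times its UT level in Ni-E and 1.43 times in Ni-W cells. It was the only one of the 12 highest scores that is not a snoRNA, the others being SNORD14D (0.670), SNORD14C (0.657), RNU86 (0.628), SNORD12 and SNORD80 (0.618 each), SNORD79 (0.610), SNORD14E (0.603), SNORD12B (0.597), SNORD78 (0.590), SNORD1B (0.568) and SNORD22 (0.566). Of other protein-coding genes, PDLIM3, an actin-associated PDZ and LIM protein, held 1.45, 3.23 and 1.92 RPKM in that order. CCND1, which encodes the G1 cyclin D1, held 7.40, 10.2 and 4.31 RPKM.

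**Figure D4:**
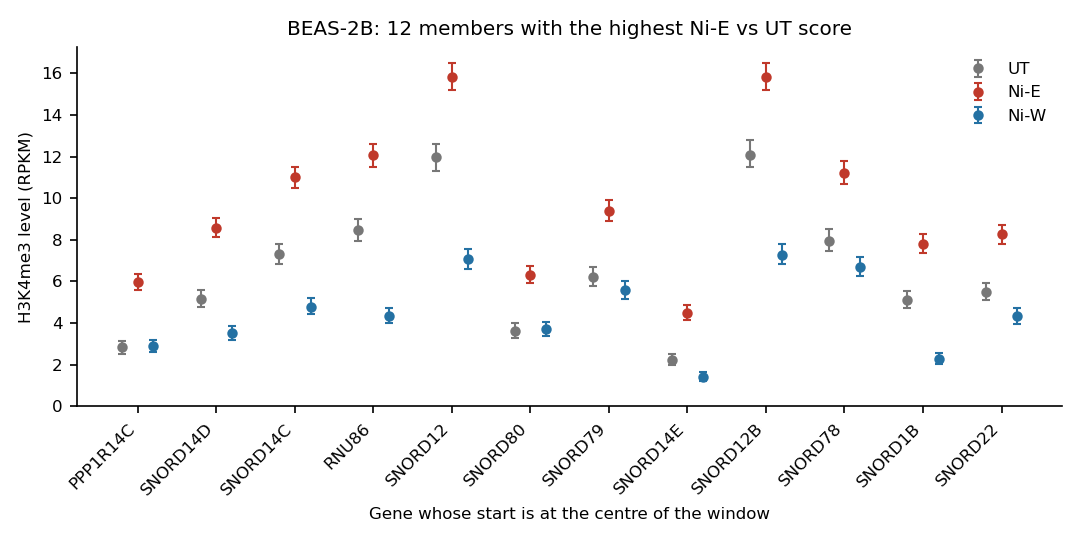
H3K4me3 level (y axis, RPKM) in UT (grey), Ni-E (red) and Ni-W cells (blue) at the 12 members with the highest score, in the order of the score (x axis), with 95% Wilson intervals of the reads as bars. Ni-E cells are the highest at each of the 12, for example 5.96 RPKM at PPP1R14C against 2.83 in UT and 2.89 in Ni-W cells.

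The functions of the members were read from 33 lists of genes. The list of cytoplasmic ribosomal proteins, the structural proteins of the ribosome, does not hold all of them and gave 16 members of 53 listed (30.2%), with RPS2 (9.08, 11.6 and 3.92 RPKM, in the order UT, Ni-E, Ni-W), RPS28 (11.5, 13.7 and 5.72), RPL13 (8.53, 10.4 and 3.88) and RPL3 (11.8, 13.8 and 5.63) at the top. The share is above the 4.21% of all promoters with 8 to 12 RPKM in UT cells, where the median of the list lies (9.75 RPKM). Within this list, 9 of 21 genes that host a listed snoRNA (42.9%) were members, and 7 of 32 that host none (21.9%). The median scores of the 21 and the 32 genes were close, at 0.256 and 0.236, both a little under the threshold. Their median UT levels were 10.2 and 9.15 RPKM, and the rule favors high levels. Whether hosting a snoRNA matters here was not tested. Other ribosomal protein members outside the list, left out of the counts above, are RPL23A, RPL13A, RPL39, RPS26, RPL17 and RPL10A. The list as a whole was above UT cells at 53 of 53 promoters after median scaling (median ratio 1.22), at 50 without scaling (1.08) and at 52 after quantile normalization (1.11). Ribosome biogenesis genes and MYC targets gave 5 of 30 (16.7%): RRP9 (5.64, 7.23 and 2.69 RPKM) and FBL (8.38, 9.73 and 3.90), which belong to snoRNA particles, NOLC1 (4.92, 6.42 and 2.66), a nucleolar chaperone, WDR12 and BOP1. The median ratio of that list was above 1 with each scaling (1.18 after median scaling, 1.04 without scaling and 1.09 after quantile normalization).

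Replication-dependent histone genes, which make the bulk of histones in S phase, gave 9 members of 58 (15.5%). HIST1H2BC (8.96, 10.8 and 5.34 RPKM), HIST1H2AC (10.1, 11.9 and 5.81) and HIST1H2BO (9.34, 11.1 and 5.73) had the highest scores among them, and the last shares its window with HIST1H2AM. Heat shock genes gave 4 of 16 (25.0%). These are HSPE1 (10.9, 12.2 and 9.54 RPKM) and HSPD1 (10.7, 11.9 and 9.04), mitochondrial chaperonins that share a promoter region, DNAJA1 (12.3, 13.4 and 5.38), a cochaperone, and HSF1 (12.2, 13.1 and 5.84), the heat shock transcription factor. HSF1 shares its region with BOP1. The TGF-beta and BMP response gave 5 of 28 (17.9%): the helix-loop-helix inhibitors ID1 (9.62, 11.1 and 5.70 RPKM) and ID2 (4.40, 5.49 and 4.29), which are targets of BMP signaling, the inhibitory SMADs SMAD6 (7.34, 8.65 and 6.25) and SMAD7 (14.2, 15.3 and 9.80), and the ligand BMP6. The median ratio of the histone list was above 1 with each scaling (1.20, 1.06 and 1.13 in the same order). For the heat shock list it was 1.15, 1.02 and 1.06, and for the TGF-beta and BMP list it was 1.07 after median scaling but 0.944 without scaling and 0.981 after quantile normalization.

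Smaller counts came from MAPK feedback (DUSP2 and DUSP5 of 15 listed), respiratory chain subunits (NDUFS1 and COX4I1 of 31), and cell cycle genes (CCND1 and CDC20 of 36). Lists with 1 member are HIF targets (BHLHE40 of 29), keratins (KRT7 of 16), p53 targets (GADD45B of 19), cell junctions (DSP of 22), inflammatory cytokines (IL11 of 23), YAP and SRF targets (PDLIM3 of 26) and the WNT pathway (DKK1 of 28). DSP, a desmosome protein, held 5.73, 7.24 and 4.49 RPKM, and DUSP2, a phosphatase of MAP kinases, 3.91, 5.46 and 1.38 RPKM. No member was found among 23 glycolysis genes, 14 metallothionein and zinc genes, 19 NRF2 targets, 27 AP-1 and immediate early genes, 20 ER stress genes, 22 interferon-stimulated genes, 23 JmjC demethylases, 17 genes of H3K4 methyltransferase complexes, 39 clustered HOX genes or 50 developmental transcription factors. The lists of EMT, integrin, growth factor, Notch, CDK inhibitor, repressive chromatin, cholesterol and iron genes gave none either. Over all promoters the share of members was 1.38%, with 1.65% at 4 to 8 RPKM in UT cells and 4.21% at 8 to 12. At such shares lists of this size would hold few members or none. The lists with 1 member or none therefore say little about these genes.

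At the other end, 20 members held under 1 RPKM in UT cells. SNTG2, a syntrophin gene, went from 9 reads in UT to 60 in Ni-E cells, with 14 in Ni-W cells, and the zinc finger gene ZNF716 from 17 to 93, with 19 in Ni-W cells. The largest ratio of Ni-E to UT cells in deposited RPKM, 5.06 at SNTG2, rests on these reads. Such ratios have wide counting errors.

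The Ni-W library shows the level of these promoters in the clone grown without nickel. Against UT cells, the members had a median score of −0.186 (quartiles −0.354 and 0.0533, range −0.739 to 1.04), and all promoters one of −0.0266 (−0.220 and 0.0816). The contrast uses the same UT library as the choice of the members. The median ratio of Ni-W to UT cells was 0.826 after median scaling and 0.589 in deposited RPKM, against 0.919 and 0.656 over all promoters, but 1.02 and 1.14 when the median of promoters with at least 1 RPKM was the divisor. The level in Ni-W cells was below that in UT cells at 255 of 362 members after median scaling, at 329 without scaling and at 193 after quantile normalization. Ni-W cells were above Ni-E cells at 17 members after median scaling, at 8 without scaling and at 79 after quantile normalization, and none of the 110 snoRNA members was among the 17 or the 8. The score also depends on the level. At 8 to 12 RPKM in UT cells, the median-scaled ratio of Ni-W to UT cells was 0.797 for 140 members and 0.783 for all promoters, and above 12 RPKM it was 0.739 for 49 members and 0.751 for all. At 4 to 8 RPKM it was 0.898 for 101 members and 0.786 for all, at 2 to 4 RPKM 0.966 for 33 members and 0.834 for all, and under 1 RPKM 1.70 for the 20 members and 1.32 for all.

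The lowest scores of Ni-W against UT cells among the members were at SNORD49A (15.7 RPKM in UT, 17.4 in Ni-E and 6.57 in Ni-W cells, score −0.739), SNORD49B (−0.737), SNORD110 (−0.737) and LRRC75A-AS1 (−0.720). LRRC75A-AS1, also known as SNHG29, hosts both SNORD49 copies, so that 3 of these windows share reads. The highest scores were at EYA2 (1.04), CDH11 (0.990), PCDHAC1 (0.810) and the readthrough gene FXYD6-FXYD2 (0.667). EYA2, a transcriptional coactivator with phosphatase activity, had a UT level of 0.335 RPKM (38 reads), a Ni-E level of 0.753 (113 reads) and a Ni-W level of 2.52 (302 reads). CDH11, a cadherin of mesenchymal cells, held 0.308, 0.753 and 2.30 RPKM, from 35, 113 and 275 reads. PCDHAC1 held 0.793, 1.34 and 2.59 RPKM. At these promoters, all under 1 RPKM in UT cells, Ni-W cells of the 1 clone were above Ni-E cells. At PPP1R14C and PCDH18 (2.00, 3.62 and 2.01 RPKM), Ni-W cells were at the level of UT cells in deposited RPKM. After median scaling they held 1.43 and 1.41 times the UT level.

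The sequence of the promoters was not used by the rule. A RefSeq promoter, from 250 bases before to 50 after the start site, was matched to 192 members and 15856 promoters in all, leaving out snoRNAs and miRNAs. The members had a median GC content of 62.7% and a CpG ratio (observed over expected) of 0.882, against 63.7% and 0.780 for all promoters and 66.7% and 0.862 for the 10059 with at least 1 RPKM in UT cells. Motifs were searched as exact letters on both strands. TATAAA was found in 10.9% of the members, 9.30% of all promoters and 4.83% of those with at least 1 RPKM. For TTCCGG, part of the site of ETS factors, the shares were 36.5%, 23.3% and 31.3%, and for CACGTG, the E box that MYC can bind, they were 15.1%, 8.84% and 10.2%. ACGTG, which is contained in CACGTG, gave 33.3%, 23.9% and 27.1%. CCAAT gave 36.5%, 36.7% and 37.0%, GGGCGG 63.0%, 60.7% and 76.0%, TGACTCA 1.04%, 3.63% and 2.54%, and GCGCATGC 5.21%, 4.44% and 5.97%.

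A run of at least 8 bases of C and T within 20 bases of the start site, on the strand of the gene, was found in 54 of the 192 members (28.1%), against 16.3% of all promoters and 15.5% of those with at least 1 RPKM. Such runs begin the transcripts of ribosomal protein and other translation genes (the TOP motif). In the promoters printed above, the run spans the start site at RPL39, GNB2L1 and EEF1B2, while at RPL17 it ends upstream of the start site used. Of the hosts of member snoRNAs with a promoter, 22 of 35 (62.9%) held a run, as did 15 of the 21 hosts that are members (71.4%). Of the members that host no member snoRNA it was 39 of 171 (22.8%). TATAAA was found in 6 of the 21 member hosts (28.6%). The share of members with a run was 35.7% at 8 to 12 RPKM in UT cells, against 16.0% of all promoters at that level, and 20.4% against 14.8% at 4 to 8 RPKM.

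RNA-Seq of RT4 cells, another cell line, shows how far the members were expressed and changed there. The 6 libraries hold 17075833 to 27736454 estimated counts, and in every group the library of replicate 2 is deeper. Of the 362 members, 351 are in the RT4 table, 250 were above 0 in any library and 208 passed the filter on low counts. snoRNAs are hardly measured in these libraries, since 25 of 105 snoRNA members in the table were above 0 and 6 were tested. Of the protein-coding members in the table, 82.2% had a median TPM of at least 1, against 62.2% of all listed protein-coding genes. Leaving out snoRNAs and miRNAs, 94.1% of the members with 8 to 12 RPKM of H3K4me3 in UT cells were expressed, against 91.8% of the other promoters at this level, and 78.3% against 87.7% at 4 to 8 RPKM. Above 12 RPKM the median TPM in RT4 cells was 165 for the members and 27.6 for the others.

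In Ni-E compared to UT cells of RT4, 3 of the 208 members tested were higher and 1 was lower at an adjusted p under 0.05 and at least a 1.5-fold change (edgeR's quasi-likelihood test, Benjamini-Hochberg adjustment over 14502 genes). Over all genes tested, 1.45% were called higher and 0.710% lower, so the share of the members was near the background. The median log2 fold change was −0.00 for the members (quartiles −0.16 and 0.22) and −0.01 for all genes. At an unadjusted p under 0.05 there were 12 members higher and 3 lower, or 7.21% of the members and 12.2% of all genes. The study's methods call the RNA samples biological replicates, without saying whether they were exposed separately, and the titles mark the second library of each group as a duplicate. The libraries of a group differed by more than counting noise (chi-square over degrees of freedom 41.3 to 125). In bulk RNA a change in the cells' mix cannot be told apart from a change per cell.

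BHLHE40, a transcriptional repressor that is induced by low oxygen, was expressed at 25.7 and 27.0 CPM in the UT libraries, 119 and 116 CPM in Ni-E and 69.8 and 68.1 CPM in Ni-W. The groups did not overlap, and Ni-W cells lay between. It rose by 2.15 on the log2 scale in Ni-E cells (SE 0.16, adjusted p = 0.00895, edgeR), with differences of 2.19 and 2.07 within replicate numbers 1 and 2. The BHLHE40 promoter in BEAS-2B held 7.61, 8.70 and 4.41 RPKM, again as UT, Ni-E, Ni-W. PPP1R14C, the member with the highest score, was weakly expressed in RT4, at 0.752 and 0.903 CPM in UT (14 and 23 counts), 3.80 and 5.03 CPM in Ni-E (69 and 138 counts) and 3.16 and 3.97 CPM in Ni-W cells (55 and 103 counts). UT libraries were the lowest and the other groups lay close together. It rose by 2.40 in Ni-E cells (log2, SE 0.33, adjusted p = 0.0313, edgeR), with 1.78 and 1.98 within replicate numbers on the scale of log2(CPM + 0.5), while for Ni-W compared to UT cells the log2 fold change of 2.10 did not pass (adjusted p = 0.0747, edgeR), but was called by DESeq2 and by edgeR with no filter on low counts. Its H3K4me3 level in BEAS-2B Ni-W cells was that of UT cells within counting error in deposited RPKM. After median scaling it was 1.43 times the UT level (score 0.264).

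DUSP5, a nuclear phosphatase that inactivates ERK, was at 121 and 117 CPM in UT, 233 and 233 in Ni-E and 164 and 149 in Ni-W cells. It rose by 0.97 in Ni-E cells (log2, SE 0.15, adjusted p = 0.0419, edgeR; 0.94 and 0.99 within replicate numbers), and the 0.39 of Ni-W compared to UT cells did not pass (adjusted p = 0.491, edgeR). Its BEAS-2B promoter held 6.46, 7.62 and 3.28 RPKM. SPTSSB, a small subunit of serine palmitoyltransferase, which starts sphingolipid synthesis, went the other way. Its expression was 248 and 269 CPM in UT, 71.7 and 78.0 in Ni-E and 143 and 149 in Ni-W cells. In Ni-E cells it fell by 1.79 on the log2 scale (SE 0.16, adjusted p = 0.0121, edgeR), with −1.78 within both replicate numbers, although its BEAS-2B promoter held 4.39 RPKM in UT, 5.43 in Ni-E and 4.23 in Ni-W cells. All 4 calls of Ni-E against UT cells are lost when a UT or Ni-E library is left out, with adjusted p-values from 0.0706 (SPTSSB without UT replicate 1) to 0.361 (DUSP5 without Ni-E replicate 1), and DUSP5 also without Ni-W replicate 2 (0.0501) and with limma (0.167).

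In Ni-W compared to UT cells of RT4, 2 of the 208 members were called higher and none lower, against 0.503% and 0.0965% of all genes. At an unadjusted p under 0.05 they were 16 and 4 (9.62% of the members and 9.12% of all genes), with a median log2 fold change of −0.06 for the members and 0.00 for all genes. TRPM6, a magnesium channel, was at 8.43 and 8.48 CPM in UT, 17.9 and 15.0 in Ni-E and 38.2 and 30.5 in Ni-W cells, so that the washed-out libraries were the highest. It rose by 2.02 in Ni-W cells (log2, SE 0.22, adjusted p = 0.0294, edgeR; 2.11 and 1.79 within replicate numbers), and the 0.96 of Ni-E cells did not pass (adjusted p = 0.105, edgeR) but was called by DESeq2. BHLHE40 was the other member called, with 1.39 (SE 0.16, adjusted p = 0.0354, edgeR). The TRPM6 promoter in BEAS-2B held 2.65, 3.51 and 1.80 RPKM. Neither call holds when any 1 of the 6 libraries is left out (adjusted p 0.0508 to 0.335) or when the fit holds only the UT and Ni-W groups (TRPM6 0.142 and BHLHE40 0.209), and limma calls neither (0.135 and 0.0873).

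In Ni-W compared to Ni-E cells of RT4, no member was called, against 0% of all genes higher and 0% lower by edgeR's test. At an unadjusted p under 0.05 there were 7 members higher and 7 lower, 6.73% of the members and 5.57% of all genes. DESeq2 called 3 higher and 1 lower of 257 members, and 89 higher and 50 lower of all 19464 genes. The median log2 fold change was −0.07 for the members and 0.02 for all genes.

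**Figure D5:**
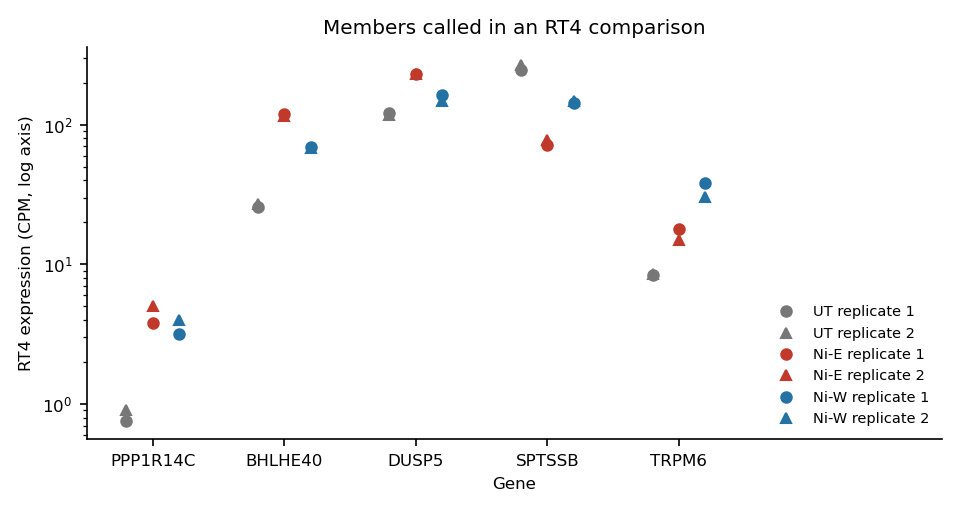
Expression in RT4 cells (y axis, CPM, log scale) of the 5 members called in a comparison (x axis), in UT (grey), Ni-E (red) and Ni-W cells (blue), with circles for replicate 1 and triangles for replicate 2. BHLHE40, DUSP5 and PPP1R14C are higher and SPTSSB is lower in the Ni-E than in the UT libraries, and TRPM6 is highest in the Ni-W libraries (38.2 and 30.5 CPM).

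No member of the gene groups that led in BEAS-2B was called in RT4 by this fit, except DUSP5 and BHLHE40 given above. Calls were few over all genes, with 1.45% higher and 0.710% lower in Ni-E and 0.503% and 0.0965% in Ni-W compared to UT cells. At such shares, groups of this size would hold few calls or none. None of the 53 listed ribosomal protein genes and none of the 45 tested hosts of member snoRNAs was called in any of the 3 comparisons by edgeR, and at an unadjusted p under 0.05 the ribosomal proteins gave 0, 1 and 0 and the hosts 1, 1 and 0. The median log2 fold change of the ribosomal proteins was −0.09 in Ni-E and −0.20 in Ni-W compared to UT cells, and that of the hosts −0.07 and −0.20, against −0.01 and 0.00 for all genes. GAS5 was at 133 and 229 CPM in UT, 160 and 239 in Ni-E and 114 and 239 in Ni-W cells, so the replicates of a group differed more than the groups did (log2 fold change of Ni-E compared to UT cells 0.14, SE 0.45, adjusted p = 0.997, edgeR). HSPA8 was at 1555 and 374 CPM in UT, 1950 and 714 in Ni-E and 2054 and 428 in Ni-W cells, with replicate 1 the higher in each group. CCND1 was at 506 and 414 CPM in UT, 687 and 592 in Ni-E and 799 and 621 in Ni-W cells, and its 0.47 in Ni-E cells did not pass (SE 0.21, adjusted p = 0.472, edgeR). Of the TGF-beta and BMP members, ID1, ID2, SMAD6, SMAD7 and BMP6, none was called in the fit without a replicate block, although 3 other genes of that list were called higher in Ni-E compared to UT cells. The largest difference among the 5 was that of SMAD7 in Ni-W compared to UT cells (7.14 and 5.69 against 14.1 and 13.1 CPM, log2 fold change 1.09, SE 0.27, adjusted p = 0.205, edgeR). No histone or heat shock member was called by that fit, with 5 and 4 tested, while 1 of the 15 tested genes of the heat shock list was higher in Ni-E and 1 in Ni-W compared to UT cells. PDLIM3, PCDH18, EYA2 and CDH11 did not pass the filter on low counts in RT4 and were not tested.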

How the data were processed

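For ChIP-Seq of BEAS-2B cells, the authors used BWA and the hg38 genome, retained 1 copy of duplicate reads and, without peak calling, deposited an RPKM for the window of 2 kb on each side of each start site. For RNA-Seq of RT4 cells, RSEM tables with estimated counts, TPM and FPKM were deposited. The methods name STAR and hg19 and the labels hg38, and which of them the estimated counts come from is not given in the sources used here. The 2 input libraries were not analysed here, and the deposited FPKM entered no test.

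Members were chosen by the score described in the report. The members, the gene lists and the tests were chosen with earlier results of these data known. ChIP levels were compared without a test, since each condition has 1 library. Reads were recovered from the steps of the RPKM. Gene positions, hosts and snoRNA sequences are from GENCODE version 44 and hg38, and promoters are from RefSeq. Rounded estimated counts were tested after TMM scaling and filterByExpr, with all 3 groups in 1 model, by the quasi-likelihood test of edgeR, and genes with an adjusted p under 0.05 and at least a 1.5-fold change were called. CPM are TMM-scaled. The deposited TPM served to say which genes are expressed and for limma. Alternatives were other scalings and filters, a log2 ratio, DESeq2 and limma on log2(TPM + 1), a replicate block, fits of the 2 groups compared and leaving out each library.

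Named are the 12 highest scores, 3 promoters on each side of the threshold (1 of them is not reported here), the 4 highest and 4 lowest scores of Ni-W against UT cells, the members called in RT4 (up to 5 in each direction, if their mean CPM reached 1), and members of the lists, up to 4 with values. TRPM6, BHLHE40, DUSP5, SPTSSB and PPP1R14C fell under the rule for RT4. The remaining snoRNAs and hosts, the promoters printed, PDLIM3, PCDH18, SNTG2 and ZNF716 were picked with their values in view. The main edgeR fit, for Ni-E compared to UT cells, and the ChIP score were also run on simulated data, but the alternative fits were not. Counts were fitted with edgeR 4.0.16, DESeq2 1.42.0 and limma 3.58.1 under R 4.3.3. Levels and figures were made with scipy 1.17.1, pandas 2.3.3, matplotlib 3.10.9 and numpy 2.4.6 under Python 3.11.15.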

Additional observations from a re-analysis of the deposited data

How the results depend on the processing

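The number of promoters past the threshold depends on the scaling, since 0.27 is a fixed cut. It was 362 with the library medians, 59 without scaling, 115 after quantile normalization, 3 with the median of promoters with at least 1 RPKM in any library as divisor, and 17 for a log2 ratio of median-scaled RPKM + 1, and each of these sets lies within the 362. They hold 42, 72, 2 and 14 snoRNAs. When the 362 highest scores were taken instead, an alternative chosen after seeing the data, 204, 260, 264 and 264 of the members were among them, and these sets of 362, members or not, held 103, 106, 104 and 109 snoRNAs. A filter at 1 RPKM left 357 and 1 gene per set of equal values left 355. The median score of Ni-W against UT cells was −0.186, −0.507 without scaling and, turned in direction, 0.0110 with the median of promoters with at least 1 RPKM (all promoters 0.0263), while quantile normalization gave −0.0241. Against promoters with at least 1 RPKM, the difference of the CpG ratio went from 0.102 to 0.0200 and that of the share on chromosome 1 from 2.47 to 2.36 percentage points, while GGGCGG turned from more to less frequent in the members.

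In RT4, the members called in Ni-E against UT cells numbered 4, 8 with no filter, 9 with DESeq2, 14 with the replicate block, and 0 to 5 when 1 library was left out, 0 without any UT or Ni-E library. In Ni-W against UT cells it was 2, 6 with DESeq2 (PPP1R14C, RBM3, SPTSSB and ZNFX1 besides the 2), 1 with limma (SNORA9, which is neither of the 2), 16 with the replicate block (with ID2, SMAD6, SMAD7, HIST1H4E and PPP1R14C among them), 0 with only those groups in the fit, and 0 without any 1 library. In Ni-W against Ni-E cells it was 0, 4 with DESeq2, 12 with the replicate block and 0 without any 1 library. Where a group is left with 1 library, that library is assumed to vary like the others. Over all 14502 genes the block gave 1108 higher and 725 lower calls in Ni-E against UT cells. It gave 840 and 403 in Ni-W against UT cells and 394 and 261 in Ni-W against Ni-E cells. DESeq2 gave 461 and 271, 339 and 98, and 89 and 50 of 19464 genes in the same order. The replicate numbers come from a suffix of the titles and nothing says that they mark a shared culture. Deviations of equal numbers correlated at 0.657, 0.764 and 0.689 across 14502 genes, which are not independent replicates. The cause was not tested. With 1 ChIP library per condition, depth gives counting error only, and differences between cultures are not covered.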
